A study of Mus musculus with 12 samples.

Results

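The 9 genes described here encode enzymes that handle itaconate, arginine, polyamines, tetrahydrobiopterin and tryptophan in immune reactions: Acod1, Nos2, Arg1, Arg2, Ass1, Odc1, Sat1, Gch1 and Ido1. They were taken by gene name from a table of 54532 genes, and all 9 were in it. Of these, 8 were among the 14014 genes with at least 1 FPKM (fragment counts divided by gene length and by a library size) in at least 2 of the 12 libraries, which were the genes tested. Ido1 stayed under 1 FPKM in every library and was not tested.

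RNA was sequenced from cultures of cells labelled adult astrocytes, dissociated with enzymes from the cortex and hippocampus of adult C57BL/6 mice. No sorting step is described. The 12 libraries form 6 groups of 2, in 3 experiments that each have their own control. Total reads ran from 16418852 to 18705309 per library.

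In the cKO experiment, cultures labelled as a conditional knockout (cKO) of Ogt, from mice aged 4 months, were set against controls of that age. Ogt, encoded on the X chromosome, places O-GlcNAc sugars on proteins. The genotype label, Glast-CreERT2::Ogtfloxp/Y, is written alike for both groups, which were told apart by the sample descriptions. CreERT2 needs tamoxifen to act, and the Glast promoter drives it in astroglia. Cells of other lineages in the dish would be expected to keep Ogt, which was not tested. When the inducer was given is not stated in the sources used here. In the AD experiment, untreated cultures of the 5X APP Alzheimer's mouse model were set against wild type, both 6 months old by the sample labels, while the text on the series' design gives a slightly younger age. In the Aβ experiment, cultures from 2-month-old wild-type mice were given amyloid-β (Aβ) 1-42 at 20 μM for 72 hours (73 hours in the label of replicate 2) or left untreated. Age differs between the experiments and not within them, so experiment and age cannot be told apart. The labels do not say whether both libraries of a group trace to different mice or dishes, so the p-values reflect just the scatter of these libraries, which may be technical.

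Ogt itself was lower in the knockout than in its own control, though not lower than in every other culture. It went from 22.7 ± 2.74 FPKM in the cKO controls to 11.5 ± 0.698 in the knockout (SD over 2 libraries), with a log2 change of -0.92 (limma, adjusted p = 0.038), and the O-GlcNAc hydrolase gene Mgea5 (Oga) fell from 43.2 to 16.2 FPKM (limma, adjusted p = 0.020). In the wild-type cultures of the Aβ experiment Ogt read 9.12 ± 1.80 FPKM untreated and 11.5 ± 1.27 after Aβ, and in the AD experiment 16.3 ± 8.94 in the controls and 19.1 ± 1.15 in the model (SD, n = 2), with Mgea5 at 14.4 in the Aβ controls. Ogt thus separates the knockout from its own control and not from the Aβ cultures. Astrocyte markers were present in all groups, with 9 of 10 at a mean of 1 FPKM or more and sums of 76.8 to 473 FPKM. Markers of microglia and macrophages were present too, with 16 or 17 of 18 at 1 FPKM or more and sums of 1302 to 10034 FPKM. Fibroblast markers summed to 278 to 1870 FPKM, and those of pericytes and smooth muscle to 203 to 4023. The cultures thus hold transcripts of several kinds of cell, and from which cells the enzyme transcripts came was not measured. In bulk RNA, fewer cells of a type and less RNA per cell cannot be told apart.

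These enzymes draw on a few shared substrates. Acod1 diverts cis-aconitate from the citric acid (TCA) cycle to itaconate, which slows succinate dehydrogenase and acts on the redox sensor Keap1. Arginine is contested between Nos2, the inducible nitric oxide synthase, and the arginases Arg1 and Arg2, which split it into urea and ornithine. Ass1 rebuilds arginine from the citrulline that Nos2 releases, and Gch1 makes the first committed step towards tetrahydrobiopterin, the cofactor that Nos2 needs. Odc1 turns ornithine into putrescine, the first polyamine, and Sat1 acetylates spermidine and spermine for export or breakdown. Ido1 opens the ring of tryptophan on the way to kynurenine. In the brain some of these genes, such as Acod1 and Nos2, are best known from activated microglia and macrophages, and Nos2 also from astrocytes exposed to cytokines.

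Every member that was called in any of the 3 comparisons was higher than in its control. In the Ogt cKO 3 of 8 tested members rose (Acod1, Gch1 and Sat1), where 22.6% of all genes tested were called higher, and 0 fell, where 19.8% were called lower (limma on log2(FPKM + 1), Benjamini-Hochberg adjusted over all genes at 0.05). In the AD model 5 of 8 rose (Acod1, Nos2, Gch1, Arg2 and Sat1) and 0 fell, against 9.80% higher and 7.27% lower among all genes. After Aβ 5 of 8 rose (Acod1, Nos2, Gch1, Arg2 and Odc1) and 0 fell, against 20.8% higher and 15.1% lower. The median log2 change of the 8 members was 0.89 in the cKO, 1.36 in the AD model and 1.61 after Aβ, while that of all genes tested was -0.0024, -0.024 and -0.037. At an unadjusted p under 0.05 the numbers were 5, 5 and 5, all higher, but the share of all genes at that threshold was not taken. With limma's voom on the reads recovered from the FPKM 3, 5 and 5 were called, also all higher. Voom called 2203, 1404 and 3049 of all 14014 genes tested higher, and 4196, 894 and 1663 lower. The median of all genes in the cKO comparison moved to -0.19 when values were rescaled to the read totals, and higher calls then made up 35.5% of all calls instead of 53.3%. For Aβ that share went from 58.0% to 47.4% under quantile normalization.

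**Figure D1:**
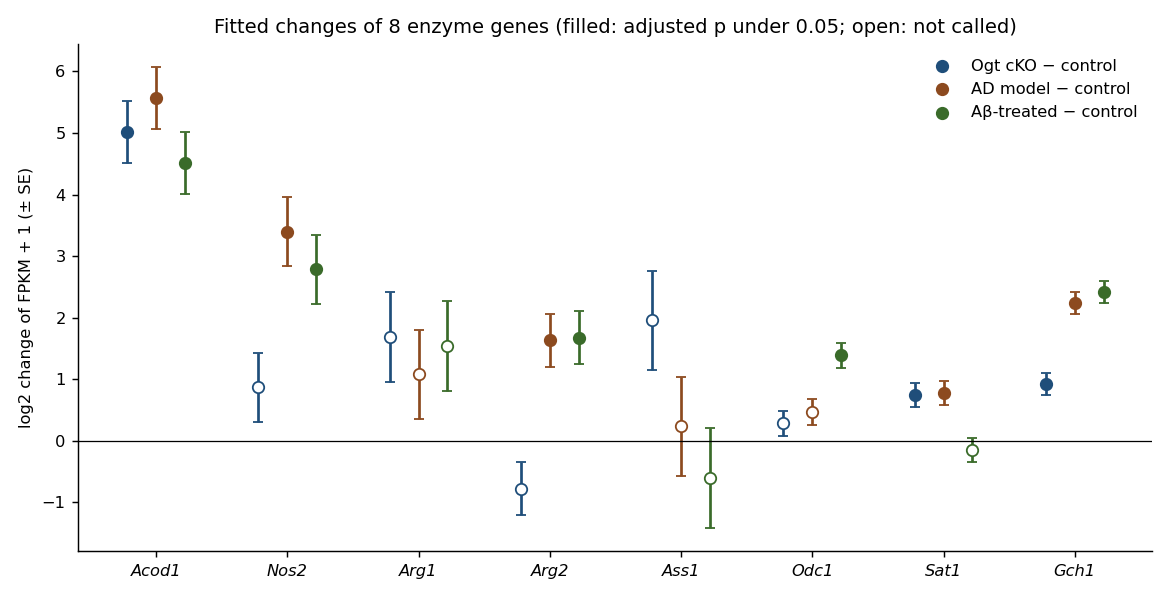
Fitted log2 change of FPKM + 1, case minus control, for the 8 tested enzyme genes in the 3 comparisons, with bars of 1 standard error (2 libraries per group); filled points are called at an adjusted p under 0.05 and open points are not. Acod1 and Gch1 are filled in all 3 comparisons, while Arg1 and Ass1 are open in all 3.

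The itaconate gene Acod1 (ENSMUSG00000022126, mm10 chr14:103046977-103056573, + strand) had the largest fitted change of log2(FPKM + 1) among the 8 tested members in each of the 3 comparisons. With voom Arg1, which had 2 reads in all in the cKO controls, came above it in the cKO (6.25 against 6.20), as it did by the ratio of group means. It was nearly silent in the controls: 0.789 and 0.425 FPKM in the cKO controls, 0 and 0.310 in the AD controls, and 0.293 and 0.483 in the Aβ controls. The same gene stood at 53.5 and 48.4 FPKM in the Ogt cKO, at 26.4 and 107 in the AD model, and at 34.2 and 27.2 after Aβ. All 6 libraries of the cases lay above all 6 control libraries. The ratio of the group means was 83.9 for the cKO, 429 for the AD model and 79.0 for Aβ, and the AD ratio rests on 16 reads in the 2 control libraries. The fitted log2 changes were 5.02 ± 0.50, 5.57 ± 0.50 and 4.51 ± 0.50 (SE), with limma adjusted p of 6.8e-04, 1.6e-04 and 3.0e-04. Acod1 was called in each comparison under all 23 other settings tried, among them leaving out each library. By mean level the AD model ranked first and the Ogt cKO second, but the libraries of the 2 groups overlapped. The Aβ-treated libraries lay below both libraries of the Ogt cKO.

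Gch1 (ENSMUSG00000037580, chr14:47153895-47189413, - strand), which sets the supply of tetrahydrobiopterin, was the other member called in all 3 comparisons. It read 1.28 and 1.34 FPKM in the cKO controls and 3.27 and 3.50 in the Ogt cKO. In the AD experiment it read 0.814 and 0.945 in the controls and 6.24 and 9.79 in the model, and in the Aβ experiment 1.34 and 1.40 in the controls and 11.1 and 12.4 after the peptide. Its control libraries stayed within a narrow band, and all 3 case groups lay above that band and apart from each other. The log2 change was 0.92 ± 0.18 in the cKO, 2.23 ± 0.18 in the AD model and 2.42 ± 0.18 after Aβ (SE, limma adjusted p = 0.0053, 7.6e-05 and 3.5e-05), and each call held under all 23 other settings. A pair of processed pseudogenes overlaps the Gch1 gene, but the higher of them, Gm49134, reached only 0.439 FPKM in any library.

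The sequences upstream of these 2 genes, the only members called in all 3 comparisons, are shown with the motifs found in them. RefSeq (build GRCm38.p6, the assembly that mm10 is based on) gave upstream sequence for 5 of the 9 members: Acod1, Ass1, Odc1, Sat1 and Gch1. The 250 bases before the RefSeq start of each were searched on both strands for 7 motifs: the interferon-stimulated response element GAAANNGAA, the gamma-activated site TTCNNNGAA, the κB site GGGANTNNC, the E-box CACGTG, the C/EBP site TTGCNNAA, the TATA box TATAAA and the antioxidant response element TGACNNNGC. Capitals mark the matches, and no match overlapped another.
Acod1, chr14:103046762-103047006, + strand: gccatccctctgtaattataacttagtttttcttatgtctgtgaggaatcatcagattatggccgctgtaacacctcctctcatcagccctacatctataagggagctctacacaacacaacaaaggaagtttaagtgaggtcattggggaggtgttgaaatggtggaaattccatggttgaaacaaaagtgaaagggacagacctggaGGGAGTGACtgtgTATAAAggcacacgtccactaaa
Gch1, chr14:47189414-47189663, - strand: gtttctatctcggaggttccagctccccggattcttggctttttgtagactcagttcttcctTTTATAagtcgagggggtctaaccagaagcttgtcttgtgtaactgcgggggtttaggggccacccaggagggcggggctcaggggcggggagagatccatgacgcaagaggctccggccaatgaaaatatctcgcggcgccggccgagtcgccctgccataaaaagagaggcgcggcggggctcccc
The Acod1 window holds a κB match, GGGAGTGAC, that begins 41 bases before the RefSeq start, and TATAAA that begins 28 bases before it. The deposited table starts Acod1 35 bases further upstream than RefSeq, so the last bases of the window lie within that gene model. Among them are TATAAA and the end of the κB match. The 5 bases next to the RefSeq start are not shown. The Gch1 window holds 1 match, TATAAA on the opposite strand, printed as TTTATA and beginning 188 bases before the start. Of all 32851 windows of this length 11.7% held the κB letters and 12.4% TATAAA. The Ass1 window held CACGTG, present in 6.02% of windows, and those of Odc1 and Sat1 held none of the 7. CACGTG begins 36 bases before the RefSeq start of Ass1. The deposited table starts Ass1 63 bases further upstream than RefSeq, so this match lies within its gene model. The GC content was 44.4% for Acod1 and 59.2% for Gch1, beside a median of 52.4% over all windows, and 75.6% for Ass1 and 80.0% for Odc1. A match is a run of letters and was not measured as a bound site.

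**Figure D2:**
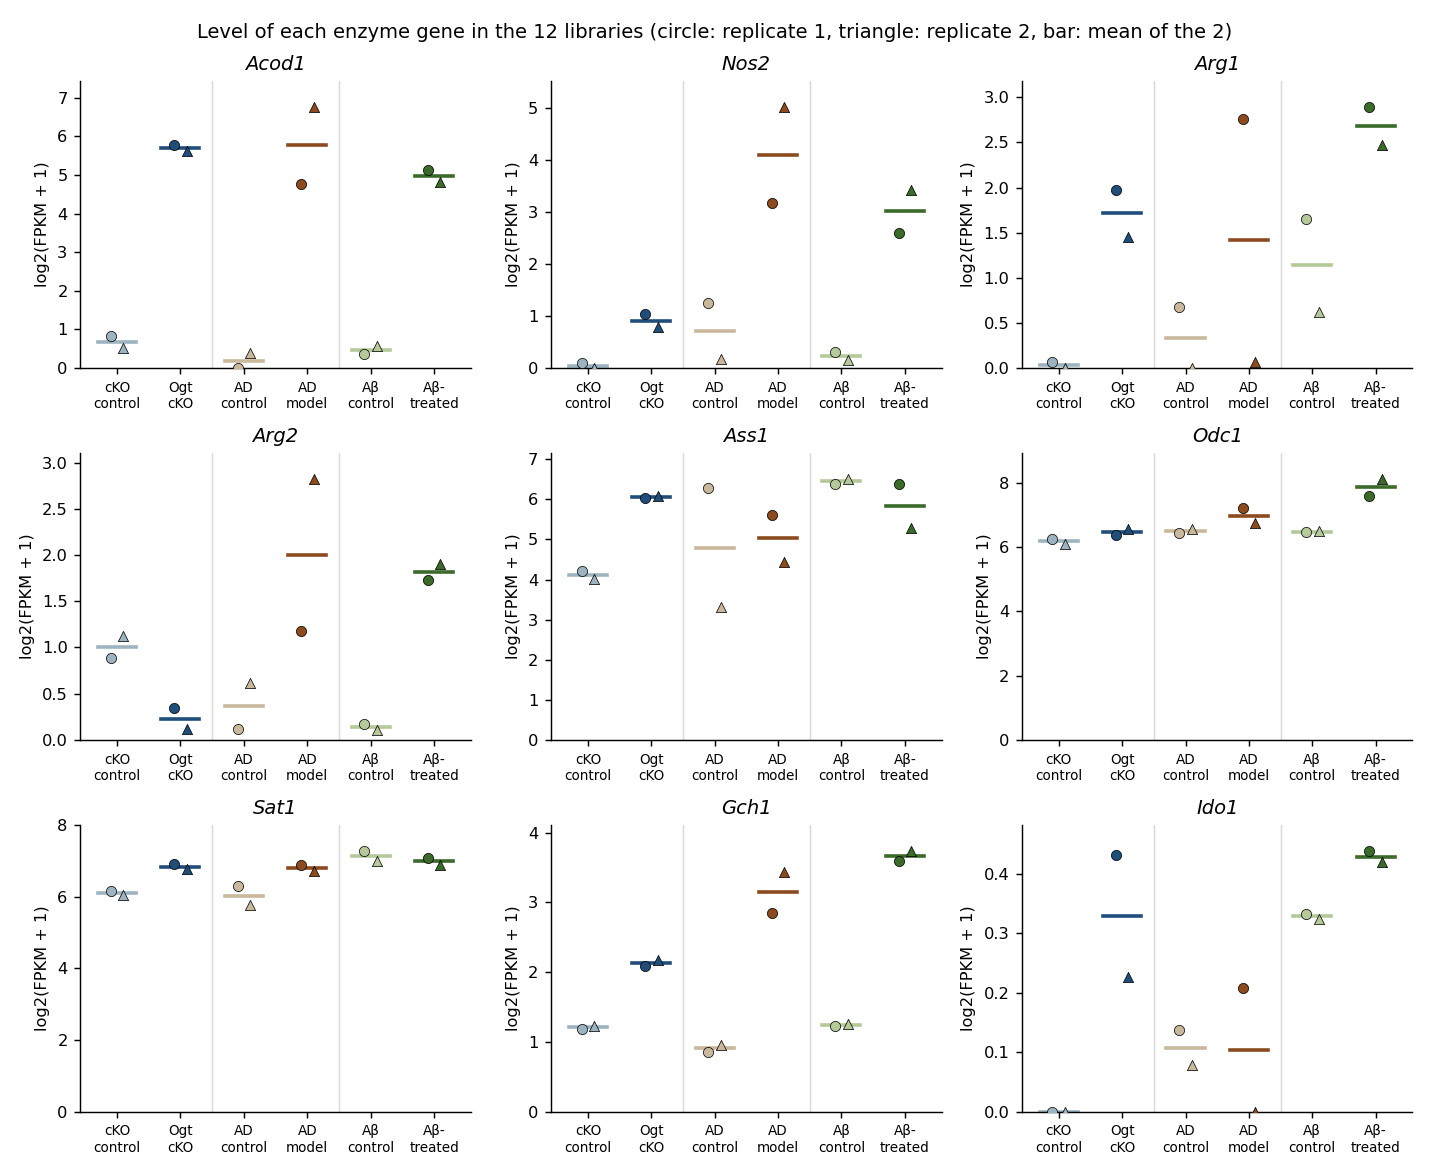
Level of each of the 9 genes as log2(FPKM + 1) in the 12 libraries, with replicate 1 as a circle, replicate 2 as a triangle and a bar at the mean of the 2 values; grey lines part the 3 experiments and each panel has its own axis from 0. Acod1 and Gch1 lie above their control in every experiment, Nos2 and Arg1 are spread widely in the AD model, and Ido1 stays under 0.5 throughout.

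Nos2 (ENSMUSG00000020826, chr11:78920787-78960254, + strand), the nitric oxide synthase, rose in both amyloid experiments. In the AD experiment it read 1.37 and 0.127 FPKM in the controls and 8.10 and 31.6 in the model, and the log2 change was 3.40 ± 0.56 (SE, limma adjusted p = 0.0037). After Aβ it went from 0.241 and 0.117 to 5.10 and 9.81 FPKM, a log2 change of 2.79 ± 0.56 (SE, limma adjusted p = 0.0051). In the Ogt cKO it read 1.07 and 0.721 FPKM, above 0.0722 and 0 in the controls, and the log2 change of 0.86 ± 0.56 had a limma adjusted p of 0.23. Those control values stand for 6 and 0 reads, and with a pseudocount of 0.1 in place of 1 the change was 2.90 with an adjusted p of 0.029. Both Ogt cKO libraries lay below the higher AD control library and below all 4 libraries of the amyloid cases, while the AD model and Aβ-treated libraries overlapped. The AD call was lost when the 4 libraries of that experiment were fitted alone (adjusted p = 0.11). That fit called 278 of all 14014 genes tested. The Aβ call was kept under all 23 other settings.

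Ass1 (ENSMUSG00000076441, chr2:31470207-31520672, + strand), which returns citrulline to arginine, did not pass the test in any comparison. In the cKO experiment it read 17.5 and 15.2 FPKM in the controls and 64.8 and 67.5 in the knockout, groups that lie far apart, with a log2 change of 1.96 ± 0.81 (SE, limma adjusted p = 0.078). All groups share 1 estimate of the spread, and the AD controls read 76.8 and 8.92 FPKM and the AD model 48.1 and 20.8. Fitted on the 4 cKO libraries alone the same change had an adjusted p of 7.5e-04, and without AD control replicate 1 it had an adjusted p of 0.0070. On those 4 libraries alone 4451 of all 14014 genes tested were called higher and 4253 lower. After Aβ Ass1 read 82.8 and 38.0 FPKM against 82.4 and 90.2, a log2 change of -0.61 (adjusted p = 0.58). In the AD experiment the change was 0.24 (adjusted p = 0.89). The Aβ controls ranked first over the 6 groups, apart from the Ogt cKO next in order, and the cKO controls ranked last.

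Both arginases make ornithine, in the cytosol and in mitochondria. Arg1 (ENSMUSG00000019987, chr10:24915221-24927484, - strand), the cytosolic form, passed the test in no comparison. It read 0.0476 and 0 FPKM in the cKO controls (2 and 0 reads) and 2.94 and 1.73 in the Ogt cKO (103 and 62 reads), a log2 change of 1.68 ± 0.73 (SE, limma adjusted p = 0.090). After Aβ it read 6.41 and 4.55 FPKM, above 2.15 and 0.543 in the controls, a log2 change of 1.54 ± 0.73 (SE, adjusted p = 0.13). The AD model libraries read 5.79 and 0.0493 FPKM (228 and 2 reads), around controls at 0.598 and 0. Over the 6 groups every neighbour in the order of mean levels overlapped the next. When either AD model library was left out of the shared fit, the cKO change had an adjusted p of 0.0084 and the Aβ change one of 0.012. In the AD experiment the log2 change itself was 1.08 with both libraries, -0.27 without replicate 1 and 2.43 without replicate 2.

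Arg2 (ENSMUSG00000021125, chr12:79130777-79156301, + strand), the mitochondrial arginase, rose in both amyloid experiments. In the AD experiment it went from 0.0848 and 0.535 FPKM to 1.27 and 6.08, a log2 change of 1.63 ± 0.43 (SE, limma adjusted p = 0.032). After Aβ it went from 0.124 and 0.0806 FPKM (3 and 2 reads) to 2.32 and 2.74 (56 and 70 reads), a log2 change of 1.68 ± 0.43 (SE, adjusted p = 0.016). The AD model and Aβ-treated libraries overlapped, and the cKO controls came next, below both. In the Ogt cKO it read 0.267 and 0.0873 FPKM, below 0.855 and 1.19 in the controls, a log2 change of -0.78 ± 0.43 (SE, adjusted p = 0.17) that had an adjusted p of 0.013 without either AD model library. The AD call was lost in 12 of 22 other settings, with an adjusted p of up to 0.28, and the Aβ call without any 1 of its own 4 libraries (adjusted p 0.062 to 0.077). Arg2 shares 285 of its 1428 exon bases with Vti1b on the opposite strand, and whether reads were counted by strand is not given in the sources used here. Vti1b stood at 92.0 ± 1.34 FPKM in the Aβ controls, where Arg2 had those 3 and 2 reads, and at 64.7 ± 1.13 after Aβ (SD, n = 2).

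Odc1 and Sat1, the enzymes that open polyamine synthesis and breakdown, were expressed at 53.0 FPKM or more in all 12 libraries, and Ass1 was the only other member to reach that level in any control. Odc1 (ENSMUSG00000011179, chr12:17544794-17551505, + strand) rose after Aβ, from 87.0 and 88.6 FPKM to 193 and 277, a log2 change of 1.39 ± 0.21 (SE, limma adjusted p = 0.0013) called under all 23 other settings. In the AD model it read 147 and 106 FPKM against 86.3 and 93.8, and in the Ogt cKO 81.7 and 93.2 against 75.8 and 67.9. Those libraries do not overlap their controls. Of all genes tested 21.8% lay wholly above their controls and 23.0% wholly below in the AD comparison, and 41.6% and 42.2% in the cKO. The log2 changes of 0.47 (adjusted p = 0.17) and 0.28 (adjusted p = 0.30) did not pass, and the latter was -0.09 under quantile normalization. Over the 6 groups the Aβ-treated and the AD model stood first and second without overlap, and the AD controls, Aβ controls and Ogt cKO overlapped in turn. A snoRNA gene, Gm22748, lies within Odc1 on the same strand and reached at most 4.16 FPKM.

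Sat1 (ENSMUSG00000025283, chrX:155213132-155216449, - strand) rose in the Ogt cKO and the AD model. It went from 69.8 and 65.0 FPKM to 118 and 109 in the cKO, a log2 change of 0.74 ± 0.19 (SE, limma adjusted p = 0.016), and from 78.0 and 53.0 to 118 and 103 in the AD model, a log2 change of 0.77 ± 0.19 (SE, adjusted p = 0.026). After Aβ it read 135 and 117 FPKM against 154 and 127 in controls that were already high, a log2 change of -0.16 (adjusted p = 0.56). In the order of mean levels the Aβ controls, Aβ-treated, Ogt cKO and AD model overlapped in turn, and the other two controls lay below them. The cKO call was lost without any 1 of its own 4 libraries (adjusted p 0.058 to 0.098) and under quantile normalization (0.35, adjusted p = 0.11). The AD call was lost without AD control replicate 2 (0.50, adjusted p = 0.098), without AD model replicate 1 (0.68, adjusted p = 0.096), with no filter (adjusted p = 0.056) and on its 4 libraries alone (adjusted p = 0.28).

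Ido1 (ENSMUSG00000031551, chr8:24584136-24597009, - strand) was barely detected. It read 0 and 0 FPKM in the cKO controls and 0.348 and 0.171 in the Ogt cKO, 0.0995 and 0.0558 in the AD controls and 0.155 and 0 in the AD model, and 0.259 and 0.252 in the Aβ controls and 0.356 and 0.337 after Aβ. The highest value stands for 11 reads, and 3 reads correspond to 0.0956 FPKM on average over the libraries, so a level up to that cannot be told from 0 in a library without reads. When no filter was applied, its log2 change was 0.33 in the cKO (limma adjusted p = 0.033), -0.0037 in the AD model (adjusted p = 1) and 0.10 after Aβ (adjusted p = 0.49).

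Whether the responses differ between the experiments was tested as the difference of 2 log2 changes. Between the AD model and the Ogt cKO 3 of 8 members differed, where 25.6% of all genes did. Gch1 rose by 1.31 more in the AD model (limma adjusted p = 0.0079), Arg2 changed by 2.41 more (adjusted p = 0.023), from a lower to a higher value, and Nos2 by 2.53 more (adjusted p = 0.044). Between Aβ and the Ogt cKO 4 of 8 differed, where 52.3% of all genes did: Gch1 by 1.50 (adjusted p = 0.0017), Arg2 by 2.46 (adjusted p = 0.0094), Odc1 by 1.11 (adjusted p = 0.013) and Sat1 by -0.90, the lower response being that to Aβ (adjusted p = 0.023). Between the AD model and Aβ 0 of 8 differed, where 6.14% of all genes did, although 2 had an unadjusted p under 0.05: Sat1 with a difference of 0.93 (adjusted p = 0.085) and Odc1 with one of -0.92 (adjusted p = 0.10). With voom on the recovered reads 0 members were called there as well. Acod1 had differences of 0.55 ± 0.71, -0.52 ± 0.71 and 1.06 ± 0.71 (SE) in these 3 tests, none of them called (adjusted p = 0.59, 0.56 and 0.40). The first and the last rest on AD model libraries at 26.4 and 107 FPKM. When each library was left out, the first ranged from -0.44 to 1.54 and the last from 0.07 to 2.05. A like response of Acod1 in the 3 experiments is thus not shown. The Gch1 differences from the cKO were called under all 22 other settings. The Nos2 difference was kept in only 5 of 22 and shrank to 0.07 with voom (adjusted p = 0.99).

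Markers of microglia and macrophages moved with the called members in the amyloid experiments and against the called members in the knockout. In the AD experiment the summed level of the 18 markers was 1302 and 1885 FPKM in the controls and 4137 and 6978 in the model, and 14 markers rose and 0 fell. In the Aβ experiment the sums were 2567 and 4224 FPKM in the controls and 7449 and 5596 after the peptide, and 9 rose and 2 fell. In the cKO experiment the sums were 10034 and 7999 FPKM in the controls and 4416 and 3297 in the knockout, and 0 rose and 9 fell, while Acod1, Gch1 and Sat1 rose. Arg2 read lower in the Ogt cKO than in its control, as the marker sum did. Within the AD model replicate 2 had the higher marker sum and the higher Acod1, Nos2, Arg2 and Gch1, and replicate 1 the higher Arg1, Ass1, Odc1 and Sat1. The Aβ-treated libraries did not repeat this. There replicate 1 had the higher marker sum and the higher Acod1, but replicate 2 had the higher Nos2, Arg2 and Gch1.

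**Figure D3:**
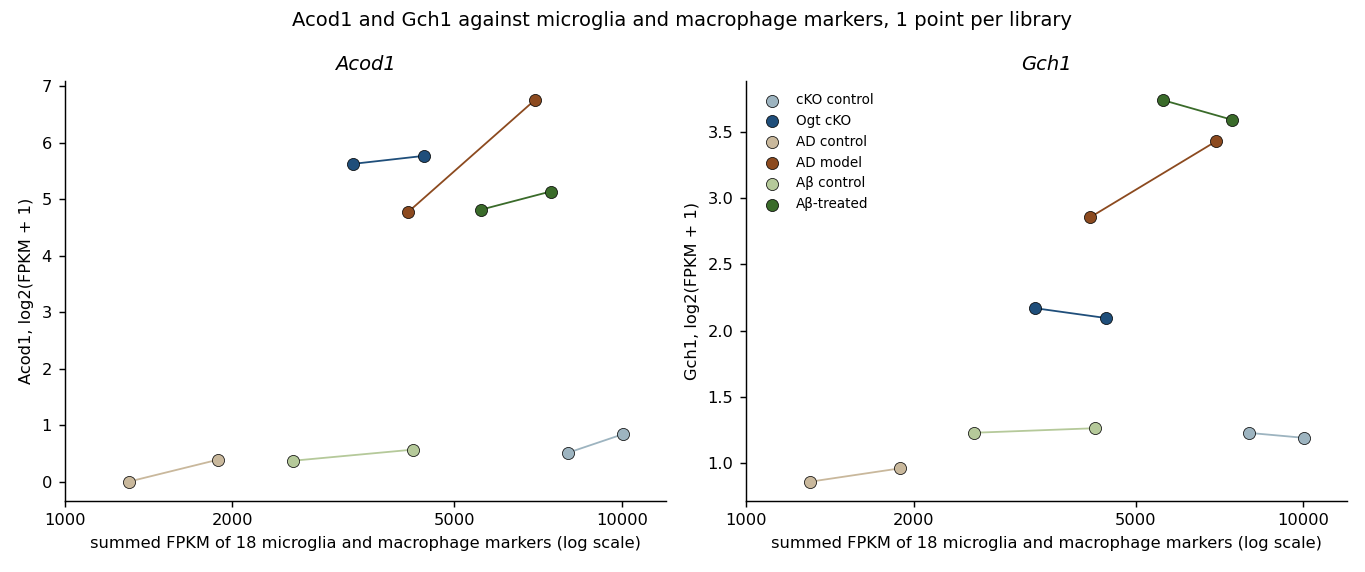
Level of Acod1 (left) and Gch1 (right) as log2(FPKM + 1) against the summed FPKM of 18 microglia and macrophage markers on a log axis, 1 point per library, with a line joining the 2 libraries of a group. The cKO controls have the highest marker sums (7999 and 10034) and Acod1 under 1 FPKM, while the Ogt cKO has sums of 3297 and 4416 and Acod1 at 48.4 and 53.5 FPKM.

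Markers of other cell types also differed between groups. Beside all these marker counts, 22.6% of all genes tested were called higher and 19.8% lower in the cKO. In the AD model these shares were 9.80% and 7.27%, and after Aβ 20.8% and 15.1%. The marker lists were not tested against them. The 8 monocyte and neutrophil markers summed to 0 to 1.87 FPKM in the control libraries and 3.25 to 11.2 in the case libraries. S100a8, the only one of them tested, rose in all 3 comparisons, while the neutrophil gene Retnlg was at 0 in all 12 libraries and S100a9 in all groups but the AD model. Ly6c2 was at 0 in every control group and above 0 in every case group. Ly6g was at 0 in all groups but the AD model and the Aβ-treated. In each case group, and in the Aβ controls, 1 of the 8 had a mean of 1 FPKM or more. Endothelial markers rose in the cKO (7 of 8) and after Aβ (6 of 8), and in the AD model 0 of 8 were called by limma (1 at an unadjusted p under 0.05). Their sums went from 52.6 and 42.6 FPKM to 275 and 262 in the cKO, and from 320 and 261 to 698 and 958 after Aβ. Pericyte and smooth muscle markers rose in the cKO (3 of 6 tested) and fell in the AD model (4 of 6) and after Aβ (5 of 6). Astrocyte markers fell in the cKO (6 of 9 tested) and in the AD model (2 of 9), and after Aβ 2 rose and 1 fell. The counts after Aβ, 22.2% higher and 11.1% lower, lay near the shares of all genes. Oligodendrocyte markers fell in the cKO (5 of 8) and rose after Aβ (6 of 8), and in the AD model 5 rose and 2 fell. Fibroblast markers fell in the AD model (4 of 6) and after Aβ (3 of 6, with 1 higher), and 0 of 6 were called in the cKO (0 at an unadjusted p under 0.05). Of the neuronal markers 2 were tested, of which 1 rose in the cKO (Stmn2), 0 were called in the AD model (0 at an unadjusted p under 0.05) and 2 fell after Aβ (Stmn2 and Tubb3). The part of any of these markers, those of microglia included, in the enzyme results was not tested.

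Around the 9 members, 5 lists of 93 gene symbols, 2 of them older names of listed genes, covered the rest of each pathway and held none of the members. Their counts stand beside the shares of all genes called, which were 22.6% higher and 19.8% lower in the cKO, 9.80% and 7.27% in the AD model, and 20.8% and 15.1% after Aβ, and no list was tested against these shares. Among 19 tested genes of the TCA cycle and of itaconate transport, 6 rose and 1 fell in the Ogt cKO, 0 were called in the AD model and 0 rose and 7 fell after Aβ, with median log2 changes of 0.17, -0.13 and -0.38. That is 31.6% higher and 5.26% lower in the cKO and 36.8% lower after Aβ. In the AD model 2 had an unadjusted p under 0.05 (limma), both lower, and voom called 0. In the cKO the transporter gene Abcg2 rose from 5.15 to 15.4 FPKM and the isocitrate dehydrogenase subunit Idh3b from 28.5 to 37.9, while the cytosolic isocitrate dehydrogenase Idh1 fell from 49.8 to 28.5 (limma adjusted p = 0.0082, 0.032 and 0.011). After Aβ the citrate carrier Slc25a1 fell from 84.3 to 51.9 FPKM, Sdhc, a subunit of the succinate dehydrogenase that itaconate slows, from 47.9 to 33.5, and Idh3g from 29.8 to 20.8. The cKO split of this list turns with the scaling: it was 1 higher and 5 lower under quantile normalization, 1 and 3 after rescaling to the read totals (chosen after seeing the data) and 1 and 3 with voom, which changes the weights as well. The call of Idh3b was lost under each of these 3 (adjusted p 0.21 to 0.24). After Aβ the list had 0 higher and 6 lower under each of them.

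Of 15 tested genes of arginine, citrulline and nitric oxide handling, 4 rose and 1 fell in the cKO, 2 rose and 1 fell in the AD model, and 4 rose and 3 fell after Aβ, with medians of 0.52, -0.05 and -0.29. The shares higher, 26.7%, 13.3% and 26.7%, lay near those of all genes, and the cKO split was 3 and 3 with voom. Oat, which passes ornithine on to proline and glutamate instead of polyamines, rose in the cKO from 103 to 148 FPKM and fell in both amyloid experiments, from 93.2 to 66.0 in the AD model and from 160 to 48.7 after Aβ (limma adjusted p = 0.011, 0.024 and 3.2e-05). The cKO rise of Oat was not called under quantile normalization (0.07, adjusted p = 0.66), after rescaling to the read totals or with voom, while its fall in both amyloid experiments was called under all of them. Gatm, which spends arginine on creatine synthesis, rose from 9.29 to 28.3 FPKM in the AD model and from 3.93 to 23.1 after Aβ, and its partner Gamt fell from 21.0 to 5.75 in the cKO. The amino acid transporter gene Slc7a7 rose from 2.35 to 7.19 FPKM in the AD model, and the nitric oxide synthase trafficking gene Nostrin from 0.202 to 2.33 after Aβ.

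Of 20 tested polyamine genes 8 rose and 3 fell in the cKO, 3 rose and 0 fell in the AD model, and 2 rose and 5 fell after Aβ, with medians of 0.26, 0.10 and -0.18. The 40% called higher in the cKO lay above the share of all genes, but the split of 8 and 3 became 7 and 5 under quantile normalization, 5 and 5 after rescaling to the read totals and 6 and 5 with voom. In the AD model 15% were higher, and after Aβ 10% were higher and 25% lower. In the cKO Eif5a, the translation factor that carries the spermidine-derived residue hypusine, rose from 161 to 457 FPKM, Dohh, which completes that residue, from 6.57 to 12.5, and Mri1 of methionine salvage from 4.09 to 11.2. Smox, which oxidizes spermine, rose from 13.3 to 19.3 FPKM in the AD model and from 12.9 to 29.7 after Aβ (limma adjusted p = 0.017 and 1.9e-04). Also in the AD model Amd1, whose product donates the aminopropyl group, rose from 15.4 to 23.5 and the spermine synthase gene Sms from 2.30 to 3.91. After Aβ the polyamine transporter gene Atp13a3 rose from 5.80 to 20.5 FPKM and Dhps, which begins hypusine synthesis, fell from 17.1 to 10.9. The count after Aβ was 2 higher and 3 lower after rescaling and 2 higher and 1 lower with voom.

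Of 8 tested tetrahydrobiopterin genes 2 rose and 1 fell in the cKO, 2 rose and 1 fell in the AD model, and 1 rose and 1 fell after Aβ, with medians of 0.01, 0.26 and 0.08. With 8 genes tested each call is 12.5% of the list, and the cKO split was 1 and 2 under quantile normalization and 1 and 3 with voom. Gch1 and the last enzyme of the synthesis, Spr, moved apart in the amyloid experiments, where Spr fell from 20.1 to 13.5 FPKM in the AD model and from 29.6 to 14.9 after Aβ (limma adjusted p = 0.016 and 6.1e-04). In the cKO Pts fell from 3.80 to 2.27 FPKM and Pcbd1 rose from 2.78 to 6.70 (not called under quantile normalization, after rescaling or with voom), and Agmo, a user of the cofactor, rose from 0.0816 to 0.925 in the AD model (adjusted p = 0.051 under quantile normalization) and from 0.141 to 1.19 after Aβ. Of 5 tested tryptophan and kynurenine genes Kyat1 fell in the cKO from 4.04 to 1.45 FPKM, Ahr, a receptor that kynurenine can activate, rose in the AD model from 2.90 to 5.25, and 0 were called after Aβ by limma, also at an unadjusted p under 0.05 and by voom. The medians of that list were -0.23, 0.06 and -0.13.

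**Figure D4:**
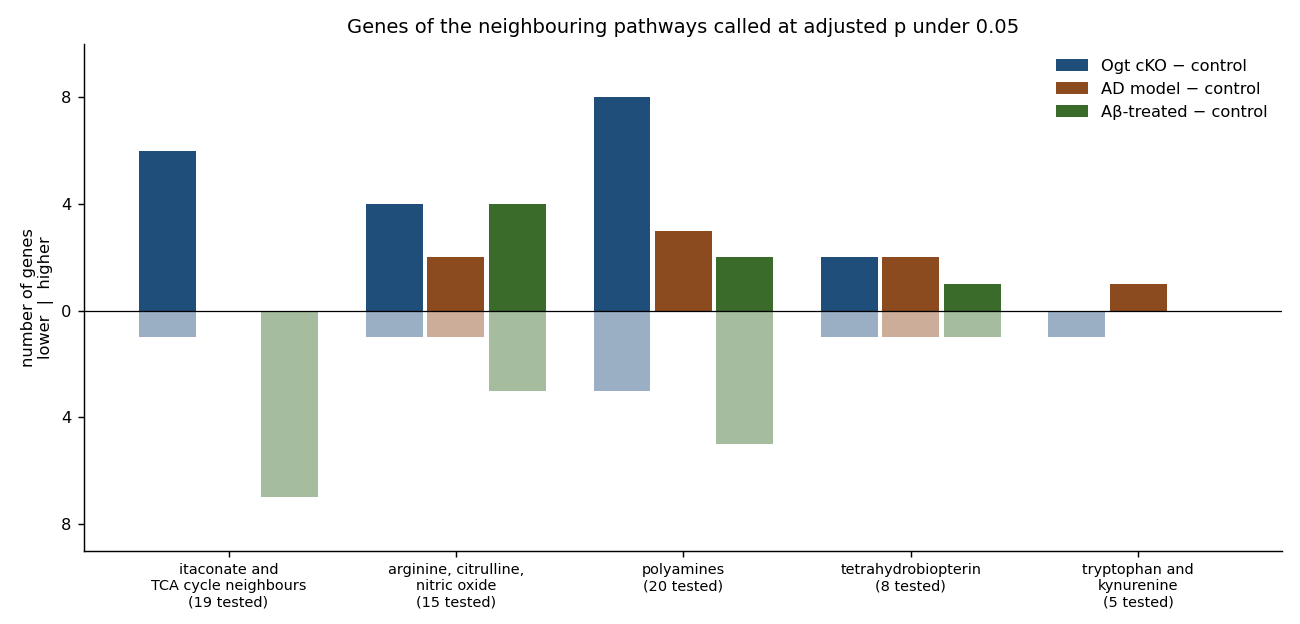
Number of genes called higher (upward bars) and lower (pale downward bars) at an adjusted p under 0.05 in 5 pathway lists, for the 3 comparisons, with the number of genes tested under each list. In the TCA cycle list the bars show 6 genes higher and 1 lower in the Ogt cKO, a split that is 1 and 5 under quantile normalization and 1 and 3 with voom, and 7 lower after Aβ. The polyamine list splits 8 to 3 in the cKO and 2 to 5 after Aβ, which with voom are 6 to 5 and 2 to 1.

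For each tested member the 3 protein-coding genes with the most similar profile were found by the Pearson correlation of log2(FPKM + 1) over the 12 libraries, among 8549 genes that had a mean of at least 5 FPKM in some group and no predicted name. These values describe 12 libraries that share 3 experiments and the same contrasts, and carry no test. Acod1 was followed most closely by the interleukin gene Il1b (r = 0.98), the NF-κB inhibitor gene Nfkbia (0.98) and the scavenger receptor gene Marco (0.98). Il1b stood at 0.313 to 0.770 FPKM in the control groups and at 54.9 in the Ogt cKO, 33.6 in the AD model and 27.6 after Aβ. Gch1 was followed by the chemokine genes Cxcl1 (0.98) and Cxcl5 (0.98) and the kinase gene Ikbke (0.98). Cxcl1 stood at 0.263 to 0.644 FPKM in the control groups and at 18.4 in the Ogt cKO, 128 in the AD model and 249 after Aβ, the order in which these 3 groups stand for Gch1.

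Nos2 was followed by Vnn3 (0.97), the cystine transporter gene Slc7a11 (0.97) and Shisa3 (0.96), and Slc7a11 read 1.40 FPKM in the Ogt cKO, 22.5 in the AD model and 10.8 after Aβ. Arg2 was followed by the cytokine receptor gene Csf2rb (0.98), Tapbp of antigen loading (0.97) and Zcchc2 (0.97), and Csf2rb, like Arg2, read lower in the Ogt cKO (1.60 FPKM) than in its control (6.61). The profile of Arg1 was closest to Cyb561 (0.94), Sdcbp2 (0.94) and Tm4sf1 (0.93), and that of Ass1 to Nhlrc2 (0.95), Cox6b2 (0.94) and Homer3 (0.94). Odc1 was closest to Npr1 (0.98), Kank3 (0.97) and the tight junction gene Ocln (0.97), and Sat1 to Cox5a (0.97), Pola2 (0.96) and Mrpl13 (0.96). Among the members themselves the closest pairs were Nos2 with Gch1 (0.87), Acod1 with Gch1 (0.86), Nos2 with Arg2 (0.83), Odc1 with Gch1 (0.82) and Ass1 with Sat1 (0.81), and the arginases were nearly unrelated (0.08).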

How the data were processed

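RNA of 12 libraries, 2 in each of 6 groups taken from the labels, was sequenced. The authors deposited FPKM for 54532 genes with the length of each gene. Per the submitters' processing notes the genome build was mm10, while for the aligner, the counter and the strand setting the sources used here give nothing. Multiplied by gene length, the FPKM of a library fell on whole multiples of 1 unit, with 100% of values no more than 0.1 read away, and reads per gene and library totals were recovered from that. The deposited FPKM are not scaled to these totals exactly.

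The test took genes that reached 1 FPKM in 2 or more libraries, on the log2(FPKM + 1) scale, using limma 3.58.1 (R 4.3.3). The fit had 1 mean per group, an intensity trend, 6 residual and 2.92 prior degrees of freedom, two-sided p-values and a Benjamini-Hochberg threshold of 0.05 across all 14014 genes. The added 1 makes fitted changes of low genes smaller than the ratio of means. Differences between experiments were contrasts of the same fit. The members and lists were chosen with earlier results of these data known. All 9 members are named, as are up to 3 genes per list and comparison by adjusted p (a few of them are not reported here), the 3 genes most like each member, and Ogt and Mgea5. Cell type markers are given as counts and sums. Single marker genes named were chosen after their values were seen. Alternatives were 2 pseudocounts, no filter and a stricter one, 3 scalings, voom on recovered reads, a replicate block, the 4 libraries of an experiment alone, and leaving out each library. Plots were drawn with matplotlib 3.10.9 in Python 3.11.15. Protein sequences were not used here.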

Additional observations from a re-analysis of the deposited data

Results flagged for a closer look

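The effects of 2 experiments differed for 7 pairs of gene and experiments by the limma contrast of the 2 log2 changes. Between the AD model and the Ogt cKO these were Nos2 with a difference of 2.53, Arg2 with 2.41 and Gch1 with 1.31. Between Aβ and the Ogt cKO they were Arg2 with 2.46, Odc1 with 1.11, Sat1 with -0.90 and Gch1 with 1.50. The shares of all genes with such a difference were 25.6% and 52.3%. The Gch1 differences kept their call under all 22 other settings and the Arg2 difference between Aβ and the Ogt cKO under all 21. The Nos2 difference kept it under 5 of 22, the Arg2 difference between the AD model and the Ogt cKO under 15 of 21, the Sat1 difference under 14 of 22 and the Odc1 difference under 21 of 22. For Arg2 the 2 changes have opposite signs, with -0.78 in the Ogt cKO (adjusted p = 0.17) against 1.63 in the AD model and 1.68 after Aβ.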

How the results depend on the processing

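With 2 libraries per group the shared spread decides many calls. On the 4 cKO libraries alone 4451 of all 14014 genes tested were called higher and 4253 lower, against 3165 and 2769 in the main fit. The 4 AD libraries alone gave 239 higher and 39 lower, against 1373 and 1019. The number of members called in the cKO was 3, and 5 with a pseudocount of 0.1, 7 (6 higher, 1 lower) on its 4 libraries alone, and 2 to 5 when each library was left out. In the AD model it was 5, and 3 with no filter, 2 on its 4 libraries alone and 3 to 5 without each library. After Aβ it was 5, and 4 to 6 without each library. Members that differed between the AD model and the cKO numbered 3, and 1 with no filter and 1 to 5 without each library; between Aβ and the cKO 4, and 2 to 5; between the AD model and Aβ 0, and 0 to 2. The cKO count of 5 and the AD count of 3 at the ends of these ranges came without either AD model library and without AD control replicate 2.

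Directions turned for Odc1 in the cKO under quantile normalization (-0.088), for Arg1 and Ass1 in the AD model without single libraries (-0.27 to 2.43 and -1.25 to 1.72), and for the Acod1 differences between the AD model and the cKO without single libraries (-0.44 to 1.54) and between Aβ and the cKO with voom (0.17). None of these was called in the main test, and the cause was not tested. Differences between experiments were followed over the settings only for Acod1 and where the main unadjusted p was under 0.05 (limma). Turns of the other differences, those of Arg1 and Ass1 included, were thus not listed. Of the comparisons of members with other settings 498 kept direction and side of the threshold, 26 lost the call, 21 gained it and 4 turned. Of the differences between experiments that were so followed 242 kept both, 32 lost the call, 8 gained it and 2 turned. The arginine list in the cKO had 5 higher and 3 lower with a pseudocount of 0.1, and the tetrahydrobiopterin list kept 1 call per comparison with a filter at 5 FPKM, where 4 of its genes were tested. A leave-one-out fit leaves 1 library in a group, assumed to vary like the others.

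The replicate numbers share no stated source. The replicate differences of the experiments correlated with r of 0.033 (cKO), 0.55 (AD) and -0.17 (Aβ) between case and control. With the replicate number as a block the cKO count was 5 and the count that differed between the AD model and Aβ 1, and all other counts stayed within 1.5 times. With the pairing crossed in the Aβ experiment, an alternative chosen after seeing the data, these counts were again 5 and 1. Depth limits the values that rest on 11 reads or fewer per library. Both libraries of a group lay there for Ido1 in all groups and for Arg1 and Nos2 in the cKO controls. The same held for Arg2 in the Aβ controls and the Ogt cKO. A single library lay there for Acod1, Nos2, Arg1 and Arg2 in the AD controls. That was also so for Nos2 in the Aβ controls and Arg1 in the AD model.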
